A study of Mus musculus with 24 samples.

Results

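The genes described are those of the nuclear genome that encode subunits of the oxidative phosphorylation complexes of mitochondria, together with a few factors that share their names. They were taken by symbol from the table of counts: every row beginning with Nduf, Uqcr, Atp5, Cox4, Cox5, Cox6, Cox7 or Cox8, together with Sdha, Sdhb, Sdhc, Sdhd and Cyc1. Of 54429 symbols in the table, 107 fitted. After 9 pseudogene symbols and 11 genes with under 240 counts over all libraries were dropped, 87 members remained, and all 87 passed the filter on low counts and were tested. They comprised 37 genes of complex I, 4 of complex II, 9 of complex III, 13 of complex IV, 16 of complex V and 8 complex I assembly factors, the Ndufaf genes.

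RNA was sequenced from macrophages grown from bone marrow of C57BL/6N mice with M-CSF at 10 ng/ml and replated on day 7. The mice were wild type or knockout for MK2, a protein kinase downstream of p38 encoded by Mapkapk2. Each genotype gave 6 libraries of cells left without stimulus (M0) and 6 of cells harvested 24 h after the addition of 10 ng/ml of IL-4 (M2), the cytokine interleukin-4, which drives alternative activation. All groups thus share the strain and the M-CSF, and the ages of the mice, the nature of the knockout allele and whether animals were pooled are not given in the sources used here. The 6 libraries of a group are not stated to come from separate animals or cultures, and the p-values therefore reflect only how far these libraries vary, which may be technical.

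Oxidative phosphorylation moves electrons from NADH through complex I, or from succinate through complex II, to ubiquinone, on through complex III and cytochrome c, and through complex IV to oxygen. Complexes I, III and IV pump protons as they do so, and complex V, the ATP synthase, makes ATP as the protons return. Most subunits are encoded in the nucleus and a few, in every complex but II, in the mitochondrial genome. Macrophages activated by IL-4 are known for their oxidative metabolism, and the coactivator PGC-1β (gene Ppargc1b) is known to be induced by IL-4 in these cells.

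Nuclear respiratory factor 1 (NRF1), GABPA of the ETS family and YY1 are known to act at promoters of such genes. The promoters of 3 members are shown because Atp5l and Cox5a were the 2 members whose M0 and M2 libraries did not overlap in either genotype, and Cox7b had the smallest adjusted p of any member. Each is the 250 bases before the RefSeq start, on the strand of the gene, from build GRCm38.p6: Atp5l at chr9:44920743-44920992 on the minus strand, Cox5a at chr9:57520982-57521231 on the plus strand and Cox7b at chrX:106015450-106015699 on the plus strand. Capitals mark letters of the NRF1 core GCATGCGC and of the ETS motif CCGGAAG, read on either strand.
Atp5l: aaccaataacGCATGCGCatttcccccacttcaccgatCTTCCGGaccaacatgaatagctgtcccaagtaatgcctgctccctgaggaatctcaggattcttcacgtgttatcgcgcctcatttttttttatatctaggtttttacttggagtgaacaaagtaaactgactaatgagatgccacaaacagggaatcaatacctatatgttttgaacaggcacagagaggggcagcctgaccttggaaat
Cox5a: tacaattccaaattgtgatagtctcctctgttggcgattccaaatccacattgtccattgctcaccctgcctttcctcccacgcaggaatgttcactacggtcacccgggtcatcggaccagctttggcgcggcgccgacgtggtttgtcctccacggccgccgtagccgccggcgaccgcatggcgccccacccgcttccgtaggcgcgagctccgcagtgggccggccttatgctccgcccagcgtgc
Cox7b: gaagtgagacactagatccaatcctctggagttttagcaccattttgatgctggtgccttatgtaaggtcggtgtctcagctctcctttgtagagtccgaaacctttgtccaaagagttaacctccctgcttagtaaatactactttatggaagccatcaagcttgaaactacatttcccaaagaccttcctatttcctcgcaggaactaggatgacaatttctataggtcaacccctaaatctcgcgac
The Atp5l window held the NRF1 core starting 240 bases before the start and, without overlap, the reverse complement of the ETS motif starting 212 bases before it. The Cox5a and Cox7b windows held neither, nor AAGATGGCG for YY1, which says only that these letters were not there.

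The promoter table from RefSeq matched 71 of the 87 members, and each gene was counted once for a motif, on both strands, with overlapping matches allowed. The NRF1 core stood in the windows of 9 of the 71 members (12.7%), against 2.56% of all 27025 genes of the table and 5.21% of the tested genes found there. The ETS motif stood in 14 members (19.7%), against 7.83% of all genes and 16.5% of tested genes, and the YY1 motif in 1 member, Atp5j (1.41%), against 0.71% and 1.49%. Of the 17 members called higher with IL-4 in either genotype, 14 were matched, and 2 of these, Atp5l and Sdhb, held any of the motifs (14.3%), against 29.6% of all matched members and 21.8% of tested genes. The NRF1 core of Sdhb began 54 bases before its RefSeq start. The GENCODE M21 annotation places 68 bases of that window, this match included, in an Sdhb exon. Matches of letters are a description of the windows and show no binding.

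Counts per library ranged from 7893809 to 13492507. Mapkapk2 was read at 100.3 to 139 CPM (counts scaled to a common library size after TMM normalization) in the 12 wild-type libraries and at 47.8 to 63.4 CPM in the 12 knockout libraries, with no overlap, so its RNA was lower but not absent under the knockout label. The sums of marker lists given next are CPM of total counts, without the TMM factor, and include listed genes too low to be tested. All 7 macrophage markers were tested and had summed levels of 4442 to 5905 CPM per library. The sum covers opposite changes: with IL-4 in wild type Cd14 (-1.53) and Fcgr1 (-0.53) fell, Itgam (0.30) rose and the others were not called. All 5 markers of the IL-4 response were higher with IL-4 in both genotypes, while none of 7 markers of T, NK and B cells had enough counts to be tested. Markers of stromal cells were lower in both knockout comparisons for 8 of 8 tested, with sums of 90.8 to 156 CPM in wild-type and 6.45 to 20.7 CPM in knockout libraries. Neutrophil markers summed to 75.6 to 267 CPM per library, and none of the 6 tested was called in any comparison. Markers of erythroid cells and megakaryocytes summed to 75.7 to 185 CPM. Of the 2 tested, Itga2b was lower in knockout with IL-4 (-1.08, adjusted p = 0.011, edgeR), and Pf4 was not called. Osteoclast markers were higher with IL-4 for 4 of 4 tested in each genotype, with sums of 38.0 to 44.4 CPM (wild type M0), 63.5 to 90.9 (wild type M2), 27.8 to 54.1 (knockout M0) and 56.0 to 100.3 (knockout M2). The part of these other cells in the results below was not tested, and in bulk RNA a change in the share of cells cannot be told apart from a change in RNA per cell.

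Libraries stood apart in 2 ways that bear on the members. Replicate 3 of wild type M0 and the second replicates of both M2 groups carry library numbers outside the 2 runs that hold the others (9 and 12 libraries), and what the numbers mark is not stated. The first run holds wild type M0 replicates 1 and 2, knockout M0 replicates 1 to 3 and replicates 1 and 3 of both M2 groups. The second holds replicates 4 to 6 of every group. In their groups the 3 libraries numbered apart had the highest value for 45, 60 and 67 of the 87 members. Wild type M0 replicates 1 and 4 and knockout M0 replicate 2 had the highest shares of counts from the mitochondrial genome, 7.52%, 5.08% and 5.00%, against 2.04% to 3.68% in the other libraries. These had the lowest value of their group for 42, 22 and 46 members, and the 3 lowest summed member levels of all 24 libraries. The counts and medians of the IL-4 and genotype comparisons are therefore also given without either set of 3. For the IL-4 comparisons the summed level of all members is given in the same way.

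**Figure D1:**
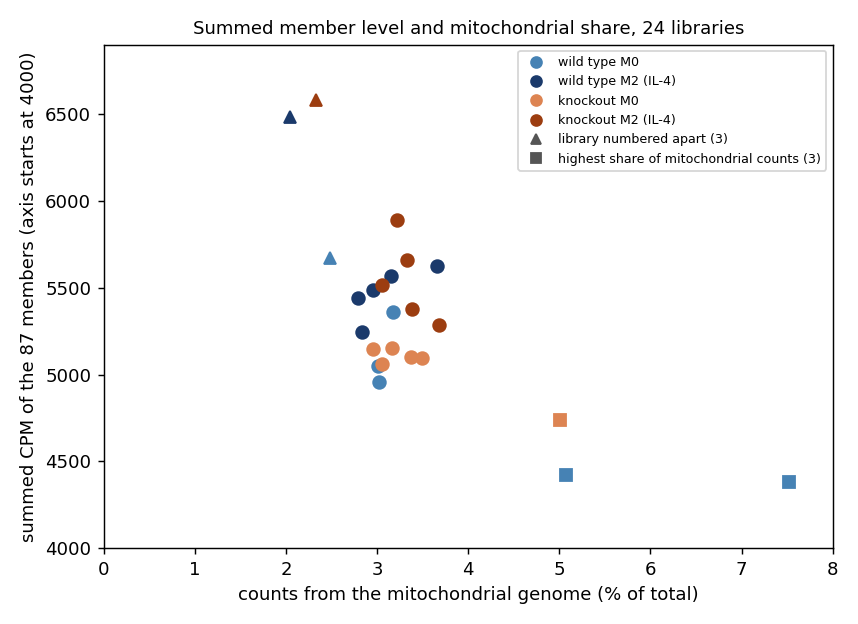
Summed level of the 87 members (y axis, CPM, not starting at 0) against the share of counts from the mitochondrial genome (x axis, percent) in 24 libraries, coloured by group. The 3 libraries numbered apart (triangles) sit at 5673 CPM or more, and the 3 with the highest mitochondrial share (squares) at 4740 CPM or less.

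The members, apart from the assembly factors, were mostly abundant transcripts. On the GETMM scale, the authors' values scaled for gene length and library, the median over members of the mean level was 235 in complex IV, 198 in complex V, 158 in complex II, 115 in complex III and 80.9 in complex I, while the assembly factors lay at a median of 11.5. Cox4i1, the general form of a regulatory subunit of cytochrome c oxidase (complex IV), was the highest member at 601, which placed it at percentile 98.3 of tested genes. Atp5b, the catalytic beta subunit of ATP synthase, came next at 465, and Atp5l, subunit g of its membrane part, at 340.4. In GENCODE M21 (build GRCm38) Atp5b lies at chr10:128083273-128090391 on the plus strand, Atp5l at chr9:44912557-44920742 on the minus strand, Cox5a at chr9:57521274-57532426 on the plus strand and Cox7b at chrX:106015700-106022450 on the plus strand. Reads of Ndufb4 and of its near-identical copy Ndufb4c, which that annotation calls a processed pseudogene, may have been split by the counting, so both levels are uncertain.

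Within each complex the levels spread differently. In complex I they ran from 34.6 (Ndufb2) to 191 (Ndufb8), both accessory subunits of the membrane arm. In complex II the 4 subunits lay close together, from 108 (Sdhd, a membrane anchor) to 205 (Sdhc, the other anchor), with the flavoprotein Sdha at 181 and the iron-sulfur subunit Sdhb at 134. Complex III ran from 60.8 (Uqcrfs1, the Rieske iron-sulfur protein) to 222 (Uqcrh, the hinge protein), with cytochrome c1, Cyc1, at 70.5. The assembly factors ran from 4.15 (Ndufaf6) to 17.4 (Ndufaf3). The lowest subunits of complexes IV and V were Cox6a2 at 3.53 and Atp5s, a coupling factor, at 5.99.

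**Figure D2:**
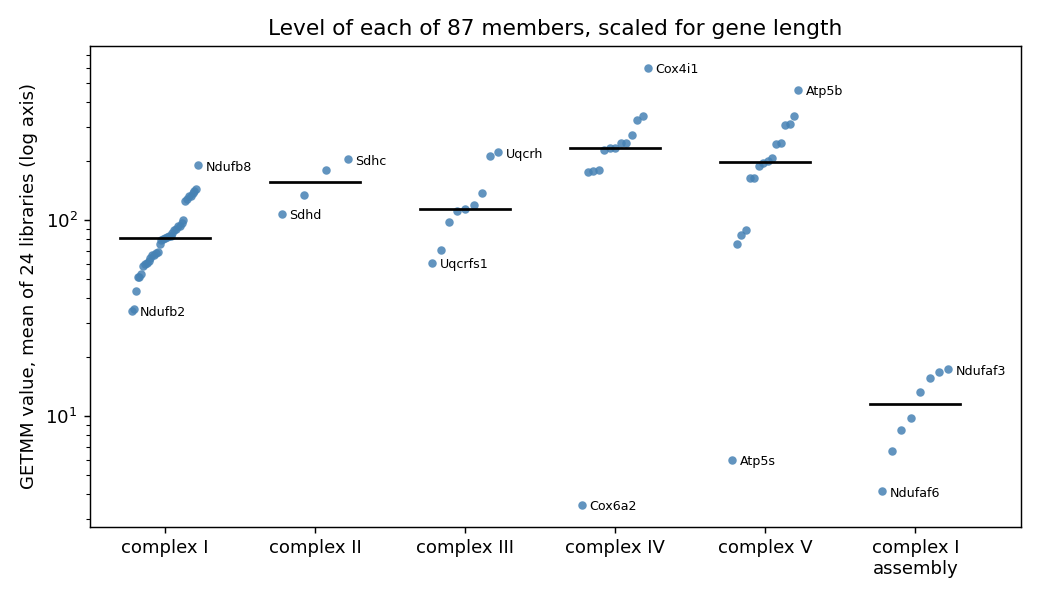
Mean GETMM value over 24 libraries (y axis, log scale) of each of 87 members, by complex, with the median of each complex as a bar and the highest and lowest member named. Subunits other than Cox6a2 and Atp5s lie between 34.6 and 601, and the 8 assembly factors between 4.15 and 17.4.

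Subunits with tissue-bound forms were almost all read from the general form. Cox6a1, the general form of subunit 6a, had a GETMM level of 214 ± 37.4 (SD, n = 6) in wild type M0, against 3.72 ± 1.86 for Cox6a2, the muscle and heart form. Cox6a2 held 324 counts over the 24 libraries, just inside the minimum of 240, and Cox7a1, a muscle form, held 230, just outside. Cox4i2 held 22 counts, Cox6b2 20 and Ndufa4l2 56, while Cox8b, Cox8c and Cox7b2 held 0 in every library.

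The ring of ATP synthase is made of a protein encoded by 3 genes. In wild type M0, Atp5g3 had a GETMM level of 209 ± 61.8, Atp5g2 71.6 ± 35.4 and Atp5g1 63.6 ± 13.7 (SD, n = 6). Atp5g3 thus led, and the other 2 did not differ beyond their spread. Atp5g2 was also the least even member between libraries, with a coefficient of variation of 38.8% averaged over the 4 groups, against a median of 11.9% over members and 3.52% for Sdha, the most even.

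With IL-4 in wild-type cells, 10 of the 87 members rose and 0 fell (edgeR quasi-likelihood test, Benjamini-Hochberg adjusted p below 0.05). Of all 12797 genes tested, 8.49% were called higher and 7.95% lower, so the share of members called higher, 11.5%, lay near the background. The size of the changes was small and their direction uniform: 78 of 87 log2 fold changes were above 0 and their median was 0.16, against 47.0% above 0 and a median of -0.02 over all genes. By complex the medians were 0.27 in complex V, 0.25 in complex II, 0.18 in complex III, 0.14 in complex I, 0.13 in complex IV and 0.08 among the assembly factors.

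The catalytic head of ATP synthase was among the members that rose. Atp5b lay between 340.2 and 507 CPM (median 449) in wild type M0 libraries and between 497 and 604 (median 527) in wild type M2 libraries. The ranges overlapped through 1 M0 library, replicate 3. The log2 fold change was 0.31 (SE 0.07, adjusted p = 0.0037, edgeR), from a mean of 434 ± 59.1 to 538 ± 36.4 CPM (SD, n = 6). Atp5a1, the alpha subunit beside it in the head, was at 329.7 to 429 CPM (median 396) in M0 and at 425 to 512 (median 447) in M2. Its ranges met by 1 library as well, and its log2 fold change was 0.24 (SE 0.06, adjusted p = 0.011, edgeR).

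Atp5l, of the membrane part of ATP synthase, lay at 68.1 to 115 CPM (median 102) in wild type M0 and at 118 to 135 CPM (median 123) in M2, so that the groups did not overlap. It had a log2 fold change of 0.37 (SE 0.10, adjusted p = 0.010, edgeR). Its 2 lowest values, 68.1 and 77.0 CPM, came from M0 replicates 1 and 4, the libraries rich in mitochondrial counts. The other 13 members of complex V did not pass the test, among them Atp5g1 (0.30, adjusted p = 0.063), Atp5g3 (0.35, adjusted p = 0.11), Atp5g2 (0.29, SE 0.34) and Atp5s (-0.02, SE 0.14).

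In complex II, which also catalyses a step of the TCA cycle, 2 of 4 subunits rose in wild type. Sdha lay at 207 to 233 CPM (median 219) in M0 and at 231 to 264 (median 241) in M2, overlapping through M0 replicate 2 alone, with a log2 fold change of 0.16 (SE 0.04, adjusted p = 0.010, edgeR). Sdhb lay at 62.5 to 89.6 CPM (median 75.3) in M0 and at 85.9 to 111 (median 91.1) in M2, with a log2 fold change of 0.30 (SE 0.09, adjusted p = 0.022, edgeR). The anchors Sdhc and Sdhd had log2 fold changes of 0.25 each (SE 0.12 and 0.11) and did not pass.

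In complex IV, Cox5a alone rose in wild type. This subunit faces the matrix, and it lay at 58.0 to 91.4 CPM (median 84.9) in M0 and at 92.0 to 122 (median 98.7) in M2, without overlap, with a log2 fold change of 0.36 (SE 0.10, adjusted p = 0.013, edgeR). Cox5a and Atp5l were the 2 members with separate groups in this direction, against 4.75% of all genes, and 0 were separate in the other direction, against 3.41%. Cox7a2l, known as a factor that joins complexes III and IV in supercomplexes, had the most negative value of complex IV: 105 to 129 CPM (median 115) in M0 and 95.5 to 114 (median 106) in M2, a log2 fold change of -0.14 (SE 0.05, adjusted p = 0.066). It did not pass here, but did under 5 of 13 alternative fits, among them the fit without the libraries numbered apart (-0.17, adjusted p = 0.030, edgeR).

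In complex I, 4 of 37 members rose in wild type: Ndufb9 (log2 fold change 0.28, SE 0.09), Ndufa13 (0.25, SE 0.08), Ndufb8 (0.24, SE 0.07) and Ndufv2 (0.19, SE 0.06). The first 3 are accessory subunits, and Ndufv2 is an iron-sulfur core subunit of the part that oxidises NADH. Ndufb8 lay at 57.6 to 73.7 CPM (median 61.4) in M0 and at 66.0 to 88.4 (median 71.2) in M2. Its M0 range reached into the M2 range through replicate 3, one of the libraries numbered apart. None of the 9 members of complex III passed (largest value Cyc1, 0.32, SE 0.17) and none of the 8 assembly factors.

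The count of 10 rested on particular libraries. Without wild type M0 replicate 1 it was 6, while 7.49% of all genes were called higher. Without M0 replicate 4 it was 5 (7.17% of all genes), and without M0 replicate 3 it was 19 (9.24%). Without M2 replicate 2, 5 members rose and Cox7a2l fell, while 7.86% of all genes were called higher and 7.23% lower. Atp5a1, Atp5b, Atp5l, Cox5a and Sdha passed whichever of the 12 wild-type libraries was left out. Without the 3 libraries richest in mitochondrial counts, 2 members rose, Atp5b (0.20, SE 0.06) and Atp5l (0.20, SE 0.06), and the median over members was 0.08 with 70 of 87 above 0, while 6.99% of all genes were called higher. Without the 3 libraries numbered apart, 14 rose and 1 fell, with a median of 0.15, while 9.05% of all genes were called higher and 8.00% lower. Within the first run of library numbers, limited to M0 replicates 1 and 2 and M2 replicates 1 and 3, 1 member rose (3.29% of all genes). Within the second, replicates 4 to 6 of both states, 12 rose (7.13% of all genes). The medians were 0.22 and 0.16. The part of mitochondrial content in these values was not tested.

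**Figure D3:**
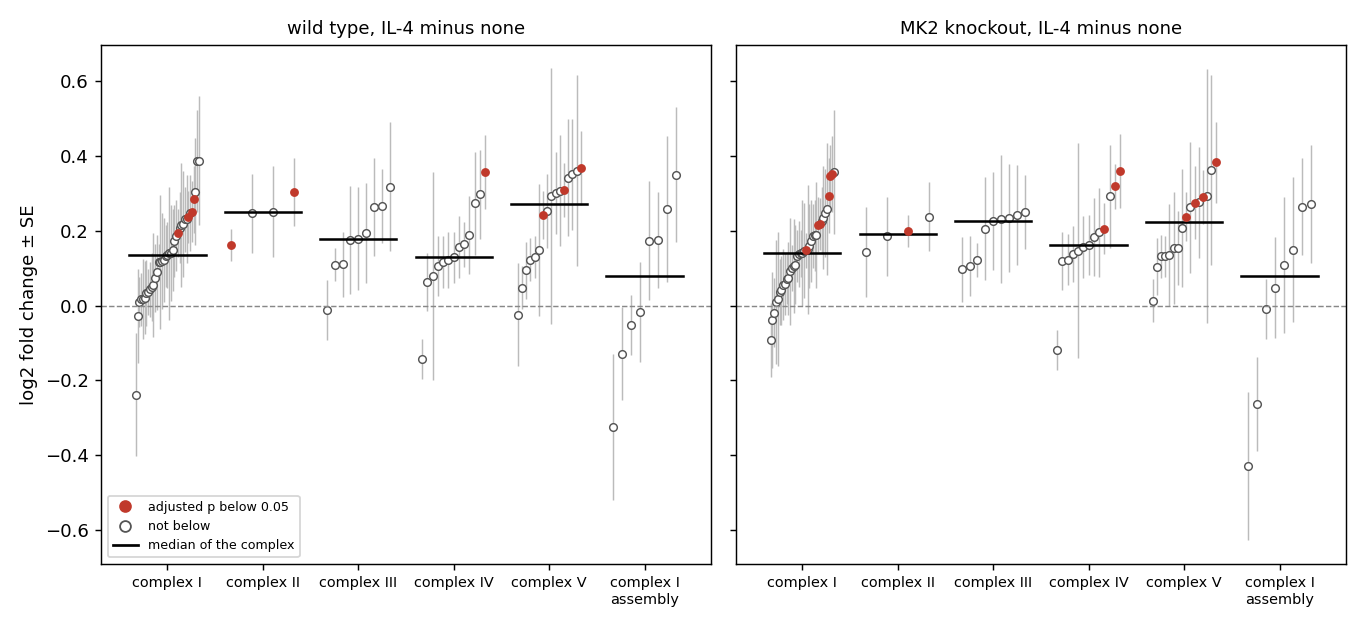
Log2 fold change with IL-4 (y axis, ± SE) of each of 87 members in wild-type (left) and MK2 knockout (right) cells, by complex, with filled red points where the adjusted p was below 0.05 and bars at the median of the complex. The medians of complexes I to V lie between 0.13 and 0.27 in wild type and between 0.14 and 0.23 in knockout.

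With IL-4 in MK2 knockout cells, 14 of 87 members rose and 0 fell. Of all genes, 12.2% were called higher and 11.4% lower, and the members' share was 16.1%, again near the background. The direction was as uniform as in wild type: 80 of 87 log2 fold changes were above 0 with a median of 0.15, against 49.2% and a median of -0.004 over all genes. The 2 IL-4 comparisons share no libraries, and 75 members had a value above 0 in both. By complex, 6 members of complex I, 1 of complex II, 3 of complex IV and 4 of complex V passed, and none of complex III or of the assembly factors.

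Cox7b, a small subunit of complex IV, had the smallest adjusted p of any member. It lay at 67.7 to 75.4 CPM (median 72.6) in knockout M0 and at 84.2 to 97.4 (median 89.1) in knockout M2, without overlap. The log2 fold change was 0.32 (SE 0.06, adjusted p = 0.00026, edgeR). In wild type the same gene went from 72.5 ± 6.04 to 81.2 ± 6.75 CPM (SD, n = 6), a log2 fold change of 0.16 (SE 0.06, adjusted p = 0.065), and the difference between the genotypes' responses was 0.15 (SE 0.09, adjusted p = 1.0, edgeR), so that the responses were not shown to differ.

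Cox5a and Cox5b also rose in knockout cells. Cox5a lay at 69.2 to 87.4 CPM (median 82.9) in M0 and at 92.9 to 116 (median 103) in M2, without overlap, with a log2 fold change of 0.36 (SE 0.10, adjusted p = 0.0078, edgeR). Cox5b rose by 0.20 (SE 0.07, adjusted p = 0.029, edgeR), with overlapping ranges of 57.6 to 68.6 and 63.9 to 83.6 CPM, a call that was lost for 6 of the 12 knockout libraries when each was left out in turn. Cox7a2l again had the one negative value of complex IV, -0.12 (SE 0.05, adjusted p = 0.11), from 116 ± 2.46 to 107 ± 4.21 CPM (SD, n = 6).

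In complex V, Atp5b lay at 437 to 475 CPM (median 457) in knockout M0 and at 513 to 636 (median 547) in knockout M2, and Atp5a1 at 377 to 424 (median 406) and 439 to 535 (median 470.2). Neither overlapped, and their log2 fold changes were 0.29 (SE 0.07, adjusted p = 0.0040) and 0.24 (SE 0.06, adjusted p = 0.0078, edgeR). Atp5g1, of the ring, was at 26.0 to 31.6 CPM (median 27.5) in M0 and at 31.7 to 45.6 (median 35.4) in M2, a log2 fold change of 0.38 (SE 0.11, adjusted p = 0.011, edgeR). Atp5l rose by 0.27 (SE 0.10, adjusted p = 0.043, edgeR), a call that was lost when any of 8 single libraries was left out.

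Sdha was the one member of complex II called in knockout cells. It lay at 216 to 227 CPM (median 220.2) in M0 and at 242 to 263 (median 255) in M2, without overlap, with a log2 fold change of 0.20 (SE 0.04, adjusted p = 0.0010, edgeR). Sdhb, Sdhc and Sdhd had log2 fold changes of 0.24, 0.14 and 0.18 and did not pass, although the Sdhd groups did not overlap.

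Among complex I genes in knockout cells, Ndufs8 rose by 0.35 (SE 0.10), Ndufa13 by 0.35 (SE 0.08), Ndufs5 by 0.29 (SE 0.10) and Ndufb8 by 0.22 (SE 0.07). Ndufs8 is an iron-sulfur core subunit. The Ndufs5 call was lost with 5 of the 12 knockout libraries left out in turn, and the Ndufb8 call with 2. Ndufa13, an accessory subunit, was at 46.1 to 54.2 CPM (median 52.3) in M0 and at 60.7 to 77.3 (median 63.7) in M2, without overlap. The 2 others called were Ndufs6, an accessory subunit (0.22, SE 0.07), and Ndufs1, the largest core subunit (0.15, SE 0.05).

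In all, 10 members had separate M0 and M2 groups in knockout cells with M2 higher, against 8.17% of all genes, and 0 with M2 lower, against 5.82%. Calls in the 2 genotypes shared 7 members, Ndufa13, Ndufb8, Sdha, Cox5a, Atp5a1, Atp5b and Atp5l, which is 70% of the wild-type calls and 50% of the knockout calls. Without knockout M2 replicate 2 the knockout count was 9, while 11.2% of all genes were called higher. With every other library left out it lay within 1.5 times of 14, while 10.9% to 11.9% of all genes were called higher. Without the 3 libraries richest in mitochondrial counts 15 rose with a median of 0.14 (12.3% of all genes called higher). Without the 3 numbered apart 12 rose and 1, Cox7a2l, fell, with a median of 0.10 (13.1% of all genes called higher and 12.8% lower). Within the first run of library numbers 2 rose and 0 fell (median 0.18, 5.76% of all genes called higher), and within the second 5 rose and 3 fell (Ndufa2, Ndufaf7 and Cox7a2l), with a median of 0.03 and 53 of 87 above 0, while 10.4% of all genes were called higher and 10.7% lower.

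**Figure D4:**
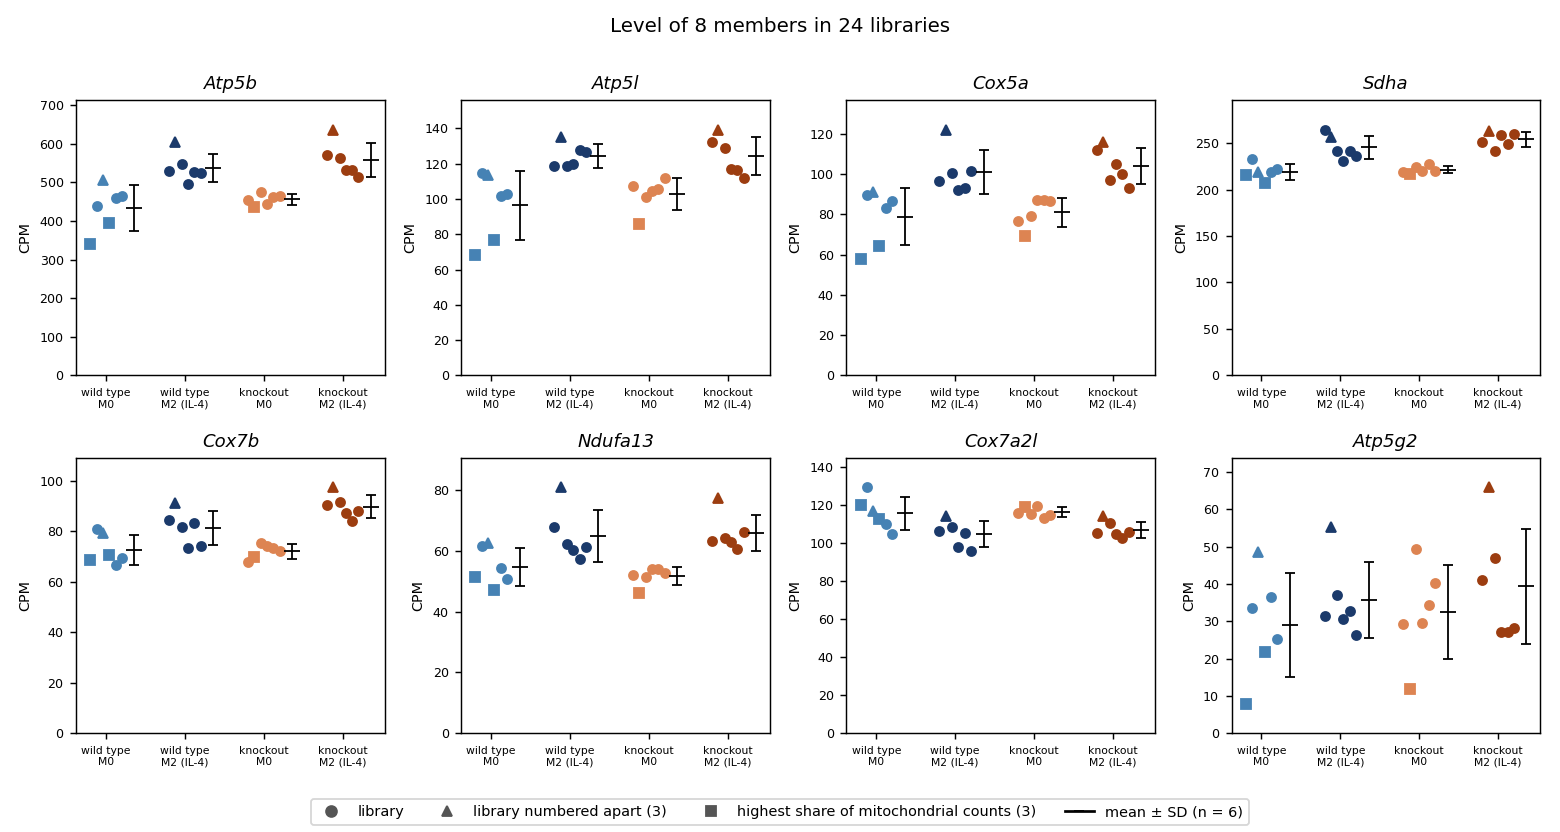
CPM (y axis, from 0) of 8 members in each of 24 libraries by group, with mean ± SD (n = 6) beside the points, triangles for the libraries numbered apart and squares for those with the highest share of mitochondrial counts. Cox5a and Atp5l have M2 libraries above every M0 library of their genotype, Cox7a2l has lower means in M2, and Atp5g2 varies most within groups.

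Summed over all members, the level was 4973 ± 511 CPM in wild type M0, 5641 ± 432 in wild type M2, 5050 ± 155 in knockout M0 and 5719 ± 473 in knockout M2 (SD, n = 6). The M2 mean was 13.4% above the M0 mean in wild type, with overlapping libraries, and 13.3% above it in knockout, where the lowest M2 library (5288 CPM) was above the highest M0 library (5154 CPM). The knockout values depend on the TMM factors, with means of 1.04 in M0 and 0.957 in M2. As a share of total counts, without these factors, the members' mean went from 0.502% to 0.561% in wild type. In knockout it went from 0.524% to 0.545%, with overlapping libraries (0.487% to 0.541% in M0 and 0.520% to 0.615% in M2). Complex V had the largest difference of the complexes in each genotype, from 1722 ± 214 to 2033 ± 143 CPM in wild type and from 1797 ± 71.3 to 2091 ± 176 CPM in knockout (16.3%), and complex I the smallest, 9.91% and 10.0%. Without the 3 libraries richest in mitochondrial counts the M2 mean of all members was 7.25% above the M0 mean in wild type and 11.9% in knockout, and complex V still led with 10.03% and 14.7%. Without the 3 numbered apart the values for all members were 13.2% and 9.84%. The summed level of the assembly factors did not follow, at 55.0 ± 2.31 and 54.9 ± 4.07 CPM in wild type and at 53.9 ± 2.23 and 53.3 ± 2.60 CPM in knockout. Ndufaf2 (-0.32 in wild type, -0.43 in knockout) and Ndufaf7 (-0.13 and -0.26) had the most negative values among them, none past the test.

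**Figure D5:**
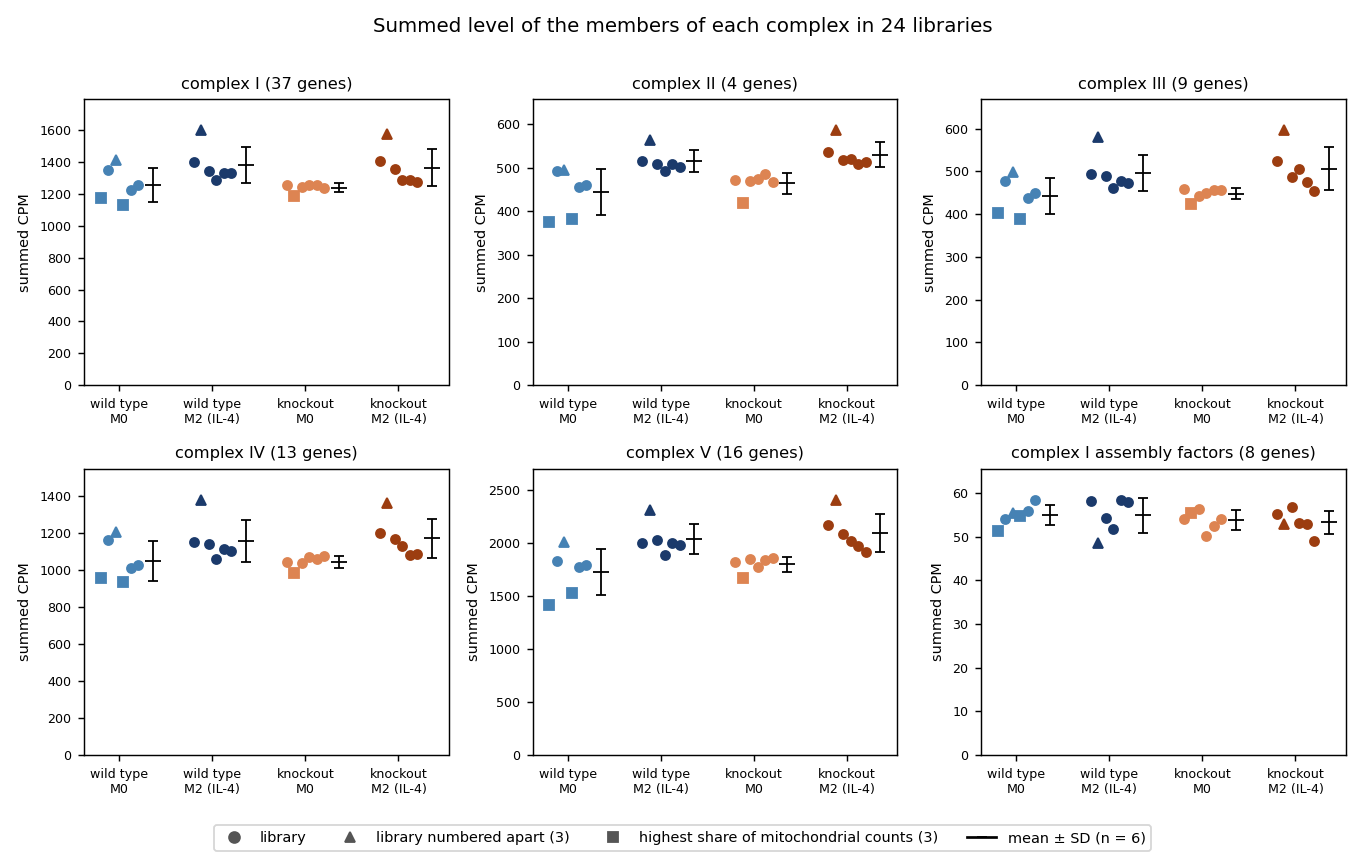
Summed CPM (y axis, from 0) of the members of each complex in each of 24 libraries, by group, with mean ± SD (n = 6) beside the points. M2 means exceed M0 means for complexes I to V in both genotypes and not for the assembly factors, and the libraries numbered apart (triangles) are highest in their groups for complexes I to V.

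The genotypes were compared in each state, and no member was called in either. In M0 cells, 0 of 87 members were called by edgeR, against 4.52% of all genes (1.10% higher in knockout and 3.42% lower), and 2 members had an unadjusted p under 0.05, Ndufs6 (-0.19, SE 0.07) and Ndufs5 (-0.25, SE 0.10). The median log2 difference, knockout minus wild type, was 0.01. The 95% interval lay within 1.5-fold either way for 82 of the 87 members and within 2-fold for all 87. Like the p-values, the intervals reflect only how far these libraries vary, which may be technical. For Atp5b the difference was 0.07, with 456 ± 14.0 CPM in knockout and 434 ± 59.1 in wild type.

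In M2 cells, again 0 of 87 members were called between the genotypes, against 4.59% of all genes (1.51% higher in knockout and 3.09% lower). Cox7b had the one unadjusted p under 0.05, at 0.14 (SE 0.06, 95% interval 0.02 to 0.27, adjusted p = 0.25 with edgeR). The median difference was -0.001, and 82 of 87 intervals lay within 1.5-fold. No member had separate genotype groups in either state, against 0.977% of all genes separate with knockout higher and 2.50% with knockout lower in M0, and 1.09% and 2.54% in M2. DESeq2 called 0 members in both states as well.

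The fits differed for a few members. Atp5g1 was called higher in knockout with a term for the run of library numbers, by 0.23 (SE 0.07, adjusted p = 0.033) without IL-4 and by 0.22 (SE 0.06, adjusted p = 0.041, edgeR) with it. Within the second run alone, Ndufa3, Ndufa6, Ndufa7, Sdhb and Cox8a were called higher in knockout without IL-4, while 3.38% of all genes were. Without the 3 libraries richest in mitochondrial counts, 0 were called in M0, the median was -0.06 and 18 of 87 values were above 0. Without the 3 numbered apart, Atp5g1 was called in M0 (0.25, SE 0.07), the median was 0.05 and 63 of 87 were above 0. In M2 cells 0 were called without either set, with medians of -0.0011 and 0.0087.

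The IL-4 responses of the genotypes were compared by the interaction term. It called 0 of 87 members and 0 of all genes tested (percentage called 0), with 0 members and 390 genes at an unadjusted p under 0.05. The median difference between responses, knockout minus wild type, was 0.003 over members, with 48 of 87 above 0. It was 0.07 (66 of 87 above 0) without the 3 libraries richest in mitochondrial counts, -0.04 (25 of 87) without the 3 numbered apart and -0.13 (22 of 87) within the second run of library numbers, where 11 members had an unadjusted p under 0.05 and 0 were called, against 17 genes called higher and 4 lower. The 95% interval lay within 1.5-fold for 71 members and within 2-fold for 86, the exception being Atp5g2 (-1.01 to 1.01).

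The 13 subunits encoded in the mitochondrial genome, which join the members in complexes I, III, IV and V, were tested as a companion list. In wild type M0 their mean levels ran from 135 CPM (mt-Co2) to 14688 CPM (mt-Co1), with mt-Co3 at 154. Their sum thus rests mostly on the abundant ones, and the reason for the low levels was not tested. None of the 13 passed in any comparison. With IL-4 all 13 had values below 0 in wild type, with a median of -0.53, though the SE of mt-Co3 (-0.08) was 0.95. In knockout 5 of 13 were above 0, with a median of -0.06. Their summed level was 23621 to 72474 CPM of total counts in wild type M0 libraries, the highest in M0 replicate 1, and 19357 to 34393 in wild type M2 libraries, so the ranges overlapped. Without M0 replicates 1 and 4, which were set apart by this same share, the wild-type mean was 27075 CPM in M0 and 27583 in M2, where with all libraries the M0 mean was 37885.

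Among 41 tested assembly factors named outside the rule, 3 rose and 1 fell with IL-4 in wild type and 4 rose in knockout. Of all genes, 8.49% were called higher and 7.95% lower in wild type, and 12.2% and 11.4% in knockout. The counts called in this list and in those that follow, ribosomal genes included, are to be read against these shares. Tmem126b, a factor of complex I assembly, had the largest rise, 0.43 (SE 0.07) in wild type and 0.54 (SE 0.07) in knockout, from 35.4 to 47.4 and from 31.2 to 45.3 CPM. Cox17, a copper chaperone of complex IV, rose by 0.23 in each genotype (SE 0.06), and Coa4 fell by 0.26 (SE 0.09) in wild type.

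Among 20 tested regulators of mitochondrial biogenesis and transcription, 2 rose with IL-4 in wild type, and 3 rose and 1 fell in knockout. Ppargc1b, the coactivator PGC-1β, rose by 1.07 (SE 0.20, adjusted p = 0.00049, edgeR) in wild type and by 1.17 (SE 0.20, adjusted p = 9.4e-05, edgeR) in knockout, at low levels of 1.60 and 3.36 CPM and of 1.62 and 3.67 CPM. Pparg, a nuclear receptor, rose by 0.55 and 0.78 (adjusted p = 7.2e-06 and 1.4e-08, edgeR). Polg, the mitochondrial DNA polymerase, fell by 0.39 (SE 0.09) in knockout. The median over the list was -0.06 in wild type and 0.06 in knockout.

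Enzymes that deliver electrons were measured beside the complexes. Of 18 electron carriers and quinone-linked enzymes, 3 rose with IL-4 in each genotype, and they were the same 3 in both: Etfa, Etfb and Etfdh, which pass electrons from fatty acid oxidation to ubiquinone. Etfa rose by 0.34 in wild type and by 0.33 in knockout (SE 0.06 each). Cycs, cytochrome c itself, had values of -0.02 (SE 0.11) and 0.05 (SE 0.11) and was not called.

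Of 20 tested genes of the TCA cycle and pyruvate entry, 2 rose and 1 fell with IL-4 in wild type and 5 rose and 1 fell in knockout. Mpc1, of the pyruvate carrier, rose by 0.34 (SE 0.06) and 0.44 (SE 0.07), and Suclg2, a succinyl-CoA ligase subunit, fell by 0.38 (SE 0.09) and by 0.37 (SE 0.09). Mpc1 was also lower in knockout than in wild type, by -0.37 without IL-4 and -0.28 with it (SE 0.07 and 0.06, adjusted p = 0.00040 and 0.0084, edgeR). Acod1, which makes itaconate, had too few counts to be tested.

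Among 11 carriers of the mitochondrial membranes, 3 rose with IL-4 in wild type, and 3 rose and 1 fell in knockout. Slc25a5, an ADP and ATP carrier, rose by 0.41 and 0.38 (adjusted p = 0.0011 and 0.0014, edgeR), Vdac1, an outer membrane channel, by 0.18 and 0.19 and Vdac2 by 0.17 and 0.21. Slc25a10, the dicarboxylate carrier, fell by 0.39 (SE 0.12) in knockout.

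Ribosomal protein genes, also many and abundant, gave a measure against which to read the members. With IL-4, the 87 tested cytosolic ones had a median of 0.15 with 85.1% above 0 in wild type and of 0.09 with 86.2% above 0 in knockout, against medians of 0.16 and 0.15 for the members. Of these, 4 rose in wild type and 2 in knockout, and 0 fell. The 78 mitochondrial ones had medians of 0.05 and 0.09, with 3 and 6 called higher. Small positive medians were thus not found for the members alone, and no test of the difference between lists was made.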

How the data were processed

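RNA-seq of 24 libraries of bone-marrow macrophages was analysed from the deposited tables. Per the submitters' processing notes, the tools were Bowtie2 2.3.4.1, RSEM 1.3.0, edgeR and CASAVA 2.8.0, with build mm10, and per the labels' protocols the libraries were Kapa Hyperprep, read single-end. The deposited values were expected counts rounded by the authors and a normalized signal, GETMM, which scales counts for gene length and library. Whether counting used strand is not stated, and genes that overlap on opposite strands may share reads.

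Expected counts of the deposited table entered the robust quasi-likelihood test of edgeR 4.0.16 under R 4.3.3 (filterByExpr with a minimum count of 10, TMM). All 4 groups were in 1 fit with no covariate, and p-values were Benjamini-Hochberg adjusted over 12797 tested genes, which hold 99.8% of counts, with a threshold of 0.05. The SE is the size of the log2 fold change over the root of F. Groups came from the sample titles. No 2 libraries of a group agreed within sampling noise (lowest chi-square per degree of freedom 2.66). The steps were tested on simulated data. Alternatives were 12 planned settings, limma 3.58.1 on log2(GETMM + 1) and DESeq2 1.42.0 among them, and 25 chosen after seeing the data, which leave out the 3 libraries richest in mitochondrial counts or 1 library each.

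Members and lists were chosen with earlier results of these data known. Members named were those called or of extreme value in their complex, with the genes of fixed families. Ndufs1, Ndufs6, Tmem126b and the members named under single alternatives were named after their values were seen.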

Additional observations from a re-analysis of the deposited data

Results flagged for a closer look

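In 160 sets of 6 libraries, 29 had 1 library whose gap to the nearest of the other 5 was large against the range of the set. Chance flags about 1 in 20 such sets, and the members are not independent of each other.

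Wild type M2 replicate 2, numbered apart, stood above the others of its group in 12 of these. Its summed levels were 1601 CPM in complex I, 563 in complex II, 579.6 in complex III, 1382 in complex IV and 2308 in complex V. Among single members it had 512 CPM of Atp5a1, 55.3 of Atp5g2, 276 of Cox4i1, 122 of Cox5a, 78.1 of Cox5b, 107 of Cox8a and 111 of Sdhb.

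Knockout M2 replicate 2, also numbered apart, stood above its group in 6: 586 CPM summed over complex II, 101 CPM of Cox6a1, 111 of Cox8a, 77.3 of Ndufa13, 9.23 of Ndufaf3 and 85.5 of Sdhd. Wild type M0 replicate 3, the third library numbered apart, stood above its group for Ndufb8 at 73.7 CPM.

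Knockout M0 replicate 2, with 5.00% of counts from the mitochondrial genome, stood below its group in 6 and above it in that share and in Cox6a2 at 1.80 CPM. The low values were 1188 CPM summed over complex I, 418 over complex II, 46.1 of Ndufa13, 22.6 of Ndufs5, 70.0 of Sdhb and 72.0 of Sdhc. Wild type M0 replicate 1 was low for Ndufv2 at 53.0 CPM and high for Uqcrh at 84.2 CPM.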

How the results depend on the processing

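Every alternative kept the median IL-4 response of the members above 0 in both genotypes, while the number called moved. The share of all genes called in the same direction under each setting is in brackets. In wild type the main fit called 10 higher (8.49%). A term for the run of library numbers gave 26 called, 25 higher (12.3%) and 1 lower. The shared label number as a block gave 17 called, 16 higher (10.2%) and 1 lower. DESeq2 called 16, 15 higher (9.57%) and 1 lower. The lower member was Cox7a2l in each case. Within the first run 1 was called higher (3.29%), and 2 when only the groups compared were fitted (6.64%). Without the 3 libraries richest in mitochondrial counts 2 were called higher (6.99%). Leaving out 1 library at a time gave 5 to 19 called higher (7.17% to 9.24%). In knockout the main fit called 14 higher (12.2%), against 9 with no count filter (4.15%) and 2 within the first run (5.76%). Within the second run 5 were higher and 3 lower (10.4% and 10.7%). When only the groups compared were fitted, 19 were higher and 2 lower (13.4% and 13.2%). With 1 library left out, 9 to 16 were higher (10.9% to 11.9%). Without IL-4, knockout against wild type had 1 member called higher with the run term (2.90%) and 1 without the libraries numbered apart (2.12%). Within the second run it had 5 called higher (3.38%), and with IL-4 it had 1 with the run term (3.01%). The causes were not tested.

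Members also changed sign: those above 0 went from 78 to 70 in wild type without the 3 libraries richest in mitochondrial counts, and from 80 to 53 in knockout within the second run. Only the members named by rule are listed here. In the first case these were Atp5g2 (-0.019), Cox6a2 (-0.067), Ndufaf3 (-0.0038) and Atp5s (0.11). Atp5s was also at 0.00016 with no count filter and at 0.050 within the first run, and Cox6b1 was at -0.027 within the second run. With 1 library left out, values ran from -0.10 to 0.043 for Atp5s and from -0.070 to 0.27 for Cox6a2. In knockout within the second run the named ones were Atp5g2 (-0.34), Atp5g3 (-0.0016), Cox7a2 (-0.023), Cox8a (-0.061), Ndufaf6 (-0.016) and Sdhc (-0.085).

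The labels give 1 M0 and 1 M2 library of a genotype the same number, without saying what it marks. The correlations do not settle whether it pairs them: 8 of 12 pairs were above 0.1, and 13 of 24 libraries correlated best with their own number. Each best match lay among the 6 libraries of the same genotype in the other state, 1 of which carries the same number. Pairs by replicate number, which include those same 12 pairs, were above 0.1 for 12 of 24. With replicate number as a block, 11 members were called higher and 1 lower in wild type (9.13% and 8.55% of all genes). In knockout 15 were called higher (12.7%). Total counts of 7893809 to 13492507 limit the low members, and Cox6a2, with 324 counts in all, bounds no small change.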

Other observations

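Some genes that fit the names were left out for low counts, and their counts over the 6 libraries of a group are given as values only. Ndufa4l2, a relative of Ndufa4, had 30 counts in wild type M0, 22 in wild type M2, 3 in knockout M0 and 1 in knockout M2. Atp5o had 17 counts over all 24 libraries, under a symbol that 2 overlapping entries of GENCODE M21 carry, so its level is not known from this row. Ndufb1-ps, dropped by its pseudogene symbol, had 9845 counts.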
